A study of Solanum lycopersicum var. cerasiforme with 6 samples.

Results

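The YABBY genes encode a small family of plant transcription factors, and 9 of the 34081 rows of the tomato count files were members of it. They were chosen by locus identifier and not by their read counts, although earlier results of these data were known. The members were YABBY1a (Solyc01g091010), YABBY1b (Solyc08g079100), YABBY2a (Solyc06g073920), YABBY2b (Solyc11g071810), YABBY5a (Solyc07g008180), YABBY5b (Solyc12g009580), CRCa (Solyc01g010240), CRCb (Solyc05g012050) and INO (Solyc05g005240). RNA was measured in young inflorescences of F3 tomato plants (Solanum lycopersicum var. cerasiforme) that differed at the fruit weight locus fw2.3, a quantitative trait locus. Inflorescences were taken from untreated greenhouse plants while every floral bud was still under 2 mm long. The derived allele was carried by 3 pools of plants (fw2.3-D) and the wild-type allele by 3 pools (fw2.3-WT), and each pool mixed RNA of 2 plants of one genotype. F3 plants still segregate at other loci, so plants of a genotype share the fw2.3 allele but not the whole genome. By their identifiers the 9 genes lie on chromosomes 1, 5, 6, 7, 8, 11 and 12, and none on chromosome 2, for which the trait locus is named. The comparison asked whether fw2.3-D inflorescences differed from fw2.3-WT inflorescences in the level of each YABBY gene.

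YABBY proteins carry a zinc finger near the amino end and a DNA-binding YABBY domain near the carboxyl end. In Arabidopsis most of them are expressed on the lower (abaxial) side of leaves and floral organs, where they help to set organ polarity, promote blade growth and keep meristem genes off in new organs. CRABS CLAW (CRC) and INNER NO OUTER (INO) are the specialised members: CRC acts in carpels, nectaries and the ending of floral meristem growth, and INO acts in the outer integument of the ovule. In tomato, YABBY2b lies at the fasciated locus on chromosome 11, where an inversion between YABBY2b and CLV3 is associated with fruits of many locules.

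The pools held 22303511 to 28504360 counted reads, and no pair of pools agreed within sampling noise. The closest pair, the first pools of both genotypes, had a chi-square per gene of 14.1, and the farthest had 55.2. The floral identity of the tissue was checked with 8 loci assigned to flower and inflorescence genes. Their mean level over all pools ran from 1.86 to 133 RPKM, reads scaled to the length of the gene and to the counted total. TM29 averaged 133 RPKM, TM5 75.9 RPKM, TAG1 33.7 RPKM and ANANTHA 30.2 RPKM, and these genes specify floral organs or floral meristems. LAT52, a gene of mature pollen, had 5 reads in fw2.3-WT replicate 1 and 0 reads in every other pool. RIN, a regulator of fruit ripening, averaged 0.728 RPKM. RefSeq lists 1 gene that overlaps RIN, and without strand the reads of both cannot be separated.

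The 9 genes differed widely in level, and their order by RPKM was the same in every pool. YABBY1a was the most abundant at 262 ± 34.1 RPKM (SD, n = 6 pools), followed by YABBY1b at 93.2 ± 10.9 RPKM and YABBY5a at 77.0 ± 12.3 RPKM. YABBY2b averaged 40.8 ± 4.20 RPKM and YABBY2a 34.0 ± 1.73 RPKM. The CRC genes followed, with 21.7 ± 3.58 RPKM for CRCa and 14.0 ± 2.19 RPKM for CRCb. YABBY5b averaged 7.51 ± 2.24 RPKM, and INO had 1 read in the 6 pools together. YABBY1a alone made up 43.5% to 50.7% of the summed RPKM of the family in a pool. Its mean RPKM ranked 415 among all deposited rows, whereas YABBY5b ranked 13811.

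**Figure D1:**
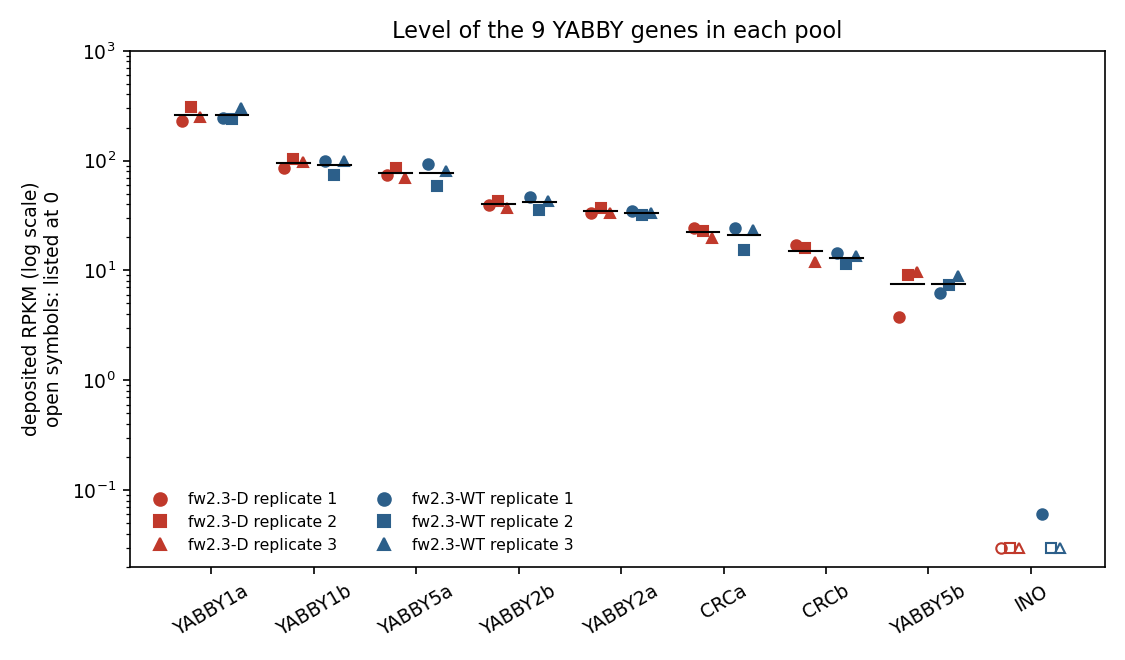
Level of each YABBY gene in each pool, in deposited RPKM on a log scale, with fw2.3-D pools in red on the left and fw2.3-WT pools in blue on the right of each gene. Filled symbols are single pools, black lines are means of 3 pools, and open symbols mark pools listed at 0 reads. The genes descend from YABBY1a at a mean of 262 RPKM to YABBY5b at 7.51 RPKM, and the pools of the genotypes lie among each other for each of these genes.

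Each neighbouring pair in this order was compared within pools, so that depth cancels. In all 8 neighbouring pairs the first gene had the higher RPKM in 6 of 6 pools. This is a description with no test, since the order was taken from these same pools. The steps were unequal. YABBY1a stood 2.81-fold above YABBY1b, with a log2 ratio of 1.49 ± 0.161 (SD, n = 6). YABBY1b stood 1.22-fold above YABBY5a (log2 ratio 0.28 ± 0.127), and YABBY2b stood above YABBY2a by a log2 ratio of 0.26 ± 0.112. In these last 2 pairs, and in CRCa and CRCb, the ranges of the pools overlapped, so the order holds within each pool but not between any 2 pools taken at random. The steps depend on the gene lengths used in the RPKM, which were between 626 bases for CRCa and 1175 bases for YABBY2a. For YABBY2b and YABBY2a the order itself depends on them, since YABBY2b was scaled to 706 bases. In reads YABBY2a was the higher of these genes in every pool. It had 1019, 1238 and 986 reads in fw2.3-D, against 727, 870 and 660 for YABBY2b. In fw2.3-WT it had 999, 832 and 942 reads, against 804, 553 and 730 for YABBY2b.

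YABBY1a and YABBY1b belong to the clade of Arabidopsis FILAMENTOUS FLOWER, an abaxial regulator of leaves and floral organs. YABBY1a had 229, 310 and 248 RPKM in the fw2.3-D pools, against 245, 241 and 302 RPKM in the fw2.3-WT pools. The highest pool was fw2.3-D replicate 2 and the lowest fw2.3-D replicate 1, so the range of fw2.3-D enclosed that of fw2.3-WT. With edgeR's quasi-likelihood test, which scales pools by TMM factors, the log2 fold change of fw2.3-D over fw2.3-WT was 0.019 (SE 0.143, adjusted p = 0.994). YABBY1b had 85.8, 103 and 97.2 RPKM in the fw2.3-D pools, against 100, 74.6 and 98.2 RPKM in the fw2.3-WT pools. The genotypes overlapped, and fw2.3-WT replicate 2 was the lowest pool. Its log2 fold change was 0.089 (SE 0.139, edgeR adjusted p = 0.956). In bulk tissue, fewer cells that express a gene cannot be told apart from less RNA per cell, here or for the genes that follow.

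YABBY2b and YABBY2a belong to the clade of Arabidopsis YAB2, which is expressed in leaves and floral organs. YABBY2b had 39.8, 43.2 and 37.3 RPKM in the fw2.3-D pools, against 46.3, 35.1 and 43.2 RPKM in the fw2.3-WT pools. The highest and the lowest pool were both fw2.3-WT, with the fw2.3-D pools between them. The log2 fold change was -0.03 (SE 0.139, edgeR adjusted p = 0.984). YABBY2a had 33.5, 37.0 and 33.4 RPKM in the fw2.3-D pools, against 34.6, 31.7 and 33.5 RPKM in the fw2.3-WT pools. It was the steadiest member: after TMM scaling its highest pool was 1.16-fold its lowest. The log2 fold change was 0.079 (SE 0.108, edgeR adjusted p = 0.953).

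YABBY5a and YABBY5b belong to the clade of Arabidopsis YAB5, another group of leaf and floral organ genes. YABBY5a had 73.9, 86.3 and 69.4 RPKM in the fw2.3-D pools, against 92.9, 58.6 and 81.1 RPKM in the fw2.3-WT pools. Here too the fw2.3-WT pools held both extremes. The TMM-scaled level (CPM, counts scaled to the library total) averaged 80.8 ± 8.66 CPM over the fw2.3-D pools and 80.8 ± 18.9 CPM over the fw2.3-WT pools (SD, n = 3). Its log2 fold change was 0.00042 (SE 0.172, edgeR adjusted p = 1.00). YABBY5b had 64, 170 and 160 reads in the fw2.3-D pools, against 101, 107 and 141 reads in the fw2.3-WT pools. These were 3.77, 9.08 and 9.70 RPKM in fw2.3-D, against 6.26, 7.30 and 8.96 RPKM in fw2.3-WT. The first pool was the lowest of its genotype in both. After TMM scaling the highest pool was 2.48-fold the lowest, the widest spread of the 8 tested members. The log2 fold change was 0.019 (SE 0.328, edgeR adjusted p = 0.999).

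CRCa and CRCb are the pair of tomato CRABS CLAW genes, which take part in carpel development and in ending floral meristem activity. CRCa had 24.1, 22.9 and 19.8 RPKM in the fw2.3-D pools, against 24.4, 15.2 and 23.5 RPKM in the fw2.3-WT pools. Only fw2.3-WT replicate 2 lay well below the other pools. The log2 fold change was 0.10 (SE 0.199, edgeR adjusted p = 0.963). CRCb had 16.9, 15.9 and 11.9 RPKM in the fw2.3-D pools, against 14.3, 11.4 and 13.4 RPKM in the fw2.3-WT pools. The fw2.3-D pools held the 2 highest values, but the third fw2.3-D pool fell below 2 of the fw2.3-WT pools. CRCb had the largest fold change of the family, 1.16-fold higher in fw2.3-D by its point estimate, and it did not pass the test (log2 fold change 0.22, SE 0.192, edgeR adjusted p = 0.948). INO had 0 reads in all 3 fw2.3-D pools, and 0 reads in 2 fw2.3-WT pools. A single read was counted in fw2.3-WT replicate 1. A count of 0 allows up to 0.156 to 0.199 RPKM per pool, from a floor of 3 reads that covers counting error only. INO did not pass the filter on low counts and was not tested.

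Set side by side, none of the 8 tested YABBY genes was called between the genotypes. At an edgeR adjusted p under 0.05, 0 of 8 were called, where 0.0239% of the 20942 tested rows were. At an unadjusted p under 0.05 edgeR also gave 0 of 8, against 3.56% of all tested rows. DESeq2 called 0 of 8 members and 0.229% of rows, and limma on log2(RPKM + 1) called 0 of 8 and 0 rows. The pools of the genotypes were fully separate in 0 of 8 members, against 9.49% of tested rows. The log2 fold changes of the 8 ran from -0.03 to 0.22 with a median of 0.049, while the median over all tested rows was 0.00083. All 8 were under 0.25 in size, as were 74.9% of all tested rows. By sign, 7 of 8 were above 0, against 50.2% of rows, but the values of 7 of the 8 were smaller than their SE, and the sign changed in 6 of the 8 with the scaling, with the tool or with 1 pool left out.

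**Figure D2:**
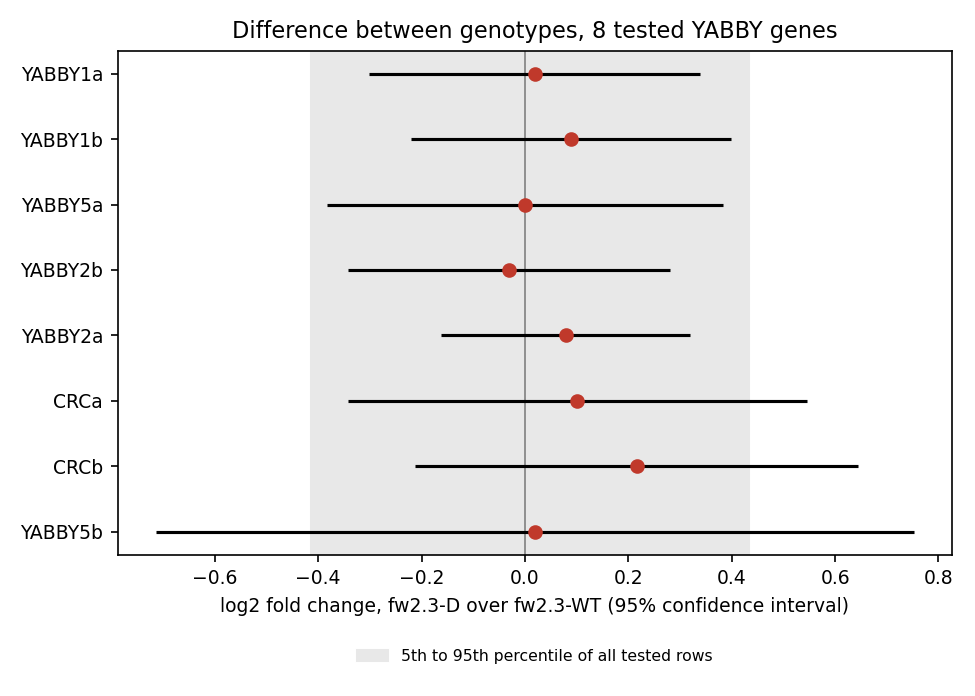
Log2 fold change of fw2.3-D over fw2.3-WT for the 8 tested YABBY genes, from edgeR, in order of level. Points are estimates, lines are 95% confidence intervals, and the grey band spans the 5th to 95th percentile of all tested rows (-0.41 to 0.43). Every interval includes 0, and that of YABBY5b is the widest.

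The 95% confidence intervals give the range of fold changes that the pools are compatible with. For YABBY2a the 95% interval of the fold change was 0.894 to 1.25, the narrowest of the tested members. For YABBY2b, the gene of the fasciated locus, it was 0.789 to 1.21, and for YABBY1a it was 0.812 to 1.26. CRCb had an interval of 0.863 to 1.56 and CRCa one of 0.789 to 1.46. For YABBY5b it was 0.610 to 1.68, the widest of the tested members. These widths include the spread between pools. The coefficient of variation that edgeR assigned to a gene was 0.111 for YABBY2a, and 8.6% of the 500 rows closest to it in level had a lower one. It was 0.284 for YABBY5b, for which the median of the 500 closest rows was 0.219.

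Several members were low or high in the same pools. After TMM scaling, fw2.3-WT replicate 2 was the lowest pool for 6 of the 8 tested members: YABBY1b, YABBY2a, YABBY2b, YABBY5a, CRCa and CRCb. The same pool was lowest for 25.9% and highest for 23.8% of all tested rows. Its median deviation from the mean of the pools was -0.24 on the log2 scale for the 8 members and -0.0094 for all tested rows. The deepest dips were those of CRCa, at -0.48, and of YABBY5a, at -0.38. For the genes of the floral check, fw2.3-WT replicate 2 was lowest for 2 of the 8, with a summed level of 645 CPM, within the 570 to 691 CPM of the other pools. A sum can hide opposite shifts of single loci. Their deviations in this pool ran from -0.70 for Solyc02g077390 to 0.30 for Solyc05g056620 on the log2 scale. What sets this pool apart was not tested. Without it, the log2 fold changes of 5 members were below 0, including -0.16 for YABBY5a, -0.14 for YABBY2b and -0.085 for CRCa, and edgeR again called 0 of 8.

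**Figure D3:**
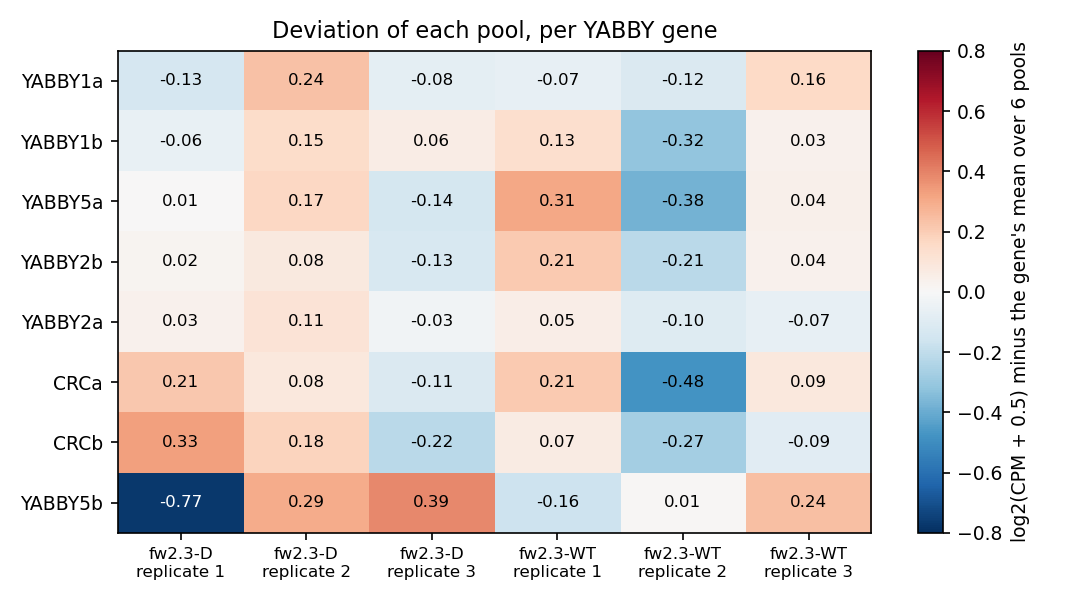
Deviation of each pool from the mean of the 6 pools for each tested YABBY gene, in log2(CPM + 0.5) with TMM scaling; the fw2.3-D pools are the 3 columns on the left. Blue is below and red above the gene's mean. The fw2.3-WT replicate 2 column is below the mean for 7 of the 8 genes, and YABBY5b stands at -0.77 in fw2.3-D replicate 1.

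YABBY5b was low in other pools. Its deviation in fw2.3-WT replicate 2 was 0.012, and it was lowest in the first pools instead, at -0.77 in fw2.3-D replicate 1 and -0.16 in fw2.3-WT replicate 1. In fw2.3-D replicate 2 all 8 members lay above their means. Correlations across the 6 pools were computed for all 28 pairs of tested members, and 1 passed the adjustment over the 28. YABBY2b and YABBY5a had Pearson's r = 0.982 (exact permutation p = 0.00139, the smallest that 6 pools allow, adjusted p = 0.0389). Spearman's rho was 1.00 (exact permutation p = 0.00278, adjusted p = 0.0778), so the pools ranked identically for both genes. That p is the smallest that the ranks of 6 pools allow, so by rank a single pair could not pass the adjustment over 28. Without the 2 pools farthest from the median of YABBY2b, r was 0.949. Only 4 of the 20941 other tested rows (0.0191%) correlated more closely with YABBY2b than YABBY5a did, while 224 (1.07%) had r above 0.9. These values share library and depth, and among so many rows a high r can arise with only 6 pools.

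Among the other members, YABBY1b and CRCa were each closest to YABBY5a (r = 0.863 and 0.889), CRCb was closest to CRCa (r = 0.801), and YABBY2a to CRCb (r = 0.795). None of these passed the adjustment over 28 pairs (exact permutation p = 0.0167 to 0.0667, adjusted p = 0.187 for YABBY1b with YABBY5a, for CRCa with YABBY5a and for CRCb with CRCa, and 0.258 for YABBY2a with CRCb). Without the 2 pools farthest from the median of 1 gene of the pair, each r was lower. It was 0.740 for YABBY1b with YABBY5a, 0.574 for CRCa with YABBY5a, 0.504 for CRCb with CRCa and 0.691 for YABBY2a with CRCb. YABBY1a had its highest r with YABBY5b, 0.563 (exact permutation p = 0.238, adjusted p = 0.416), and nearly the same with YABBY1b, 0.529 (exact permutation p = 0.268, adjusted p = 0.442). By rank it was closer to YABBY1b, with a Spearman's rho of 0.771, against 0.543 with YABBY5b (exact permutation p = 0.103 and 0.297, adjusted p = 0.320 and 0.490). Across the whole table, Solyc10g007410.4 and Solyc08g079490.4 followed YABBY1a most closely, with r of 0.998 and 0.992, and 52 rows had r above 0.95. The files pair no names with these identifiers.

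Tomato keeps YABBY1, YABBY2, YABBY5 and CRC as pairs, so the balance within each pair was compared between the genotypes as the ratio of RPKM in a pool. YABBY1a exceeded YABBY1b by 2.67, 3.00 and 2.55 times in the fw2.3-D pools, and by 2.45, 3.23 and 3.07 times in the fw2.3-WT pools. The ratio of YABBY2b to YABBY2a was closest to 1, at 1.19, 1.17 and 1.11 in fw2.3-D, against 1.34, 1.11 and 1.29 in fw2.3-WT. CRCa exceeded CRCb by 1.42, 1.44 and 1.67 times in fw2.3-D, and by 1.71, 1.33 and 1.75 times in fw2.3-WT. The genotypes overlapped in each of these pairs. YABBY5a exceeded YABBY5b by 19.6, 9.50 and 7.16 times in fw2.3-D, and by 14.8, 8.03 and 9.05 times in fw2.3-WT. This was the most uneven pair and the most variable, and in both genotypes the first pool had the highest ratio. On the log2 scale the ratios in fw2.3-D minus fw2.3-WT differed by -0.085 for YABBY1a/YABBY1b, -0.10 for YABBY2b/YABBY2a, 0.099 for YABBY5a/YABBY5b and -0.076 for CRCa/CRCb. None passed (exact permutation test, two-sided, p = 0.4 to 0.8, adjusted p = 0.8 over 4 pairs), and 3 pools against 3 cannot give a p below 0.1.

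**Figure D4:**
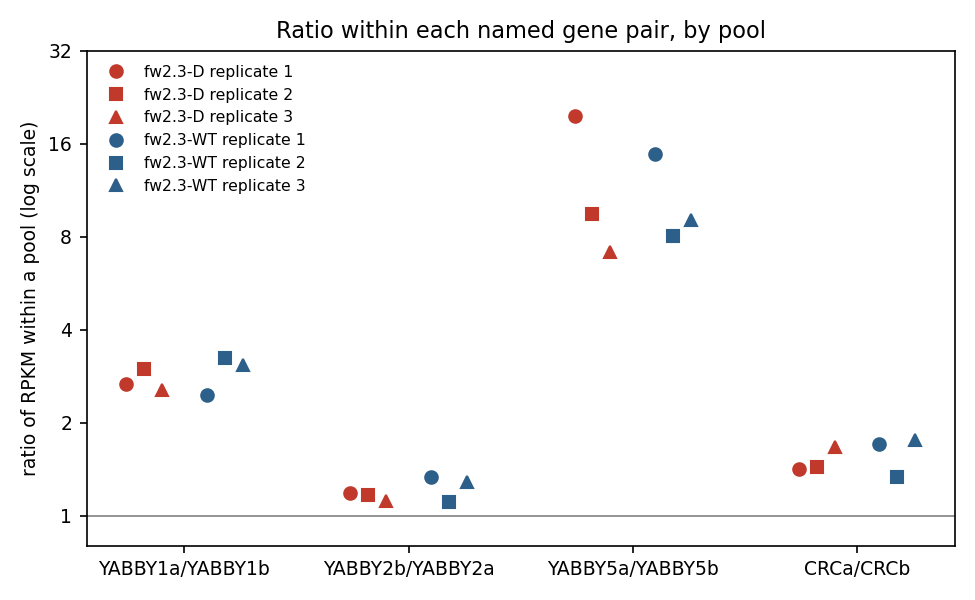
Ratio of RPKM between the members of each named gene pair within each pool, on a log scale with a line at 1, with fw2.3-D in red on the left and fw2.3-WT in blue on the right. Each symbol is 1 pool. By RPKM each pair keeps its higher member in every pool. The YABBY5a/YABBY5b ratio is highest in the first pool of each genotype, at 19.6 in fw2.3-D, against 14.8 in fw2.3-WT.

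A list of 10 genes that act with or against YABBY genes in organ polarity and in ending floral meristem growth was read from the same fit. Of these, 9 were tested and 0 were called by edgeR, where 0.0239% of all tested rows were. At an unadjusted p under 0.05 there were also 0, against 3.56% of rows, so neither count sets the list apart from the rest of the table. The log2 fold changes ran from -0.67 to 0.067 with a median of -0.056, and 3 were above 0 and 6 below, where 50.2% of rows were above 0. ARF3, the auxin response factor also known as ETTIN, had 69.1, 65.2 and 82.6 RPKM in fw2.3-D, against 79.4, 94.0 and 84.0 RPKM in fw2.3-WT (log2 fold change -0.23, SE 0.133, edgeR adjusted p = 0.948). Its relative ARF4, likewise tied to abaxial identity in Arabidopsis, had a log2 fold change of -0.0089 (SE 0.120). Solyc03g117360 was the single list member whose genotypes did not overlap, against 9.49% of tested rows. It had 68.4, 58.5 and 73.7 RPKM in fw2.3-D, against 77.4, 85.3 and 79.2 RPKM in fw2.3-WT (log2 fold change -0.25, SE 0.131, edgeR adjusted p = 0.948).

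The floral stem cell genes WUS and CLV3 were low in this tissue, with means of 1.79 and 2.93 RPKM over the 6 pools. WUS, which maintains stem cells and which CRC helps to switch off in the flower, had 50, 46 and 49 reads in the fw2.3-D pools, against 40, 50 and 35 reads in the fw2.3-WT pools. TAG1, the gene for carpel and stamen identity that acts with CRC to end meristem growth, had 1156, 1053 and 856 reads in fw2.3-D, against 962, 933 and 878 reads in fw2.3-WT. The difference on the log2 scale was 0.00033 (SE 0.140, edgeR adjusted p = 1.00). CLV3, the peptide gene that restrains WUS and that is named with YABBY2b at the fasciated inversion, had 14, 19 and 17 reads in fw2.3-D, against 15, 38 and 18 reads in fw2.3-WT. The log2 fold change was -0.67 (SE 0.499, edgeR adjusted p = 0.948). It rested on fw2.3-WT replicate 2, the pool in which most YABBY genes were lowest, and was -0.091 without it. RefSeq lists 1 gene that overlaps CLV3, and without strand the reads of both cannot be separated. ARF3, WUS, Solyc09g010840 and Solyc03g117360 were also highest in fw2.3-WT replicate 2, so that 5 of the 9 tested list genes had their highest level there, against 23.8% of all tested rows. IMA, the mini zinc finger gene, had 1 read in all and was not tested.

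**Figure D5:**
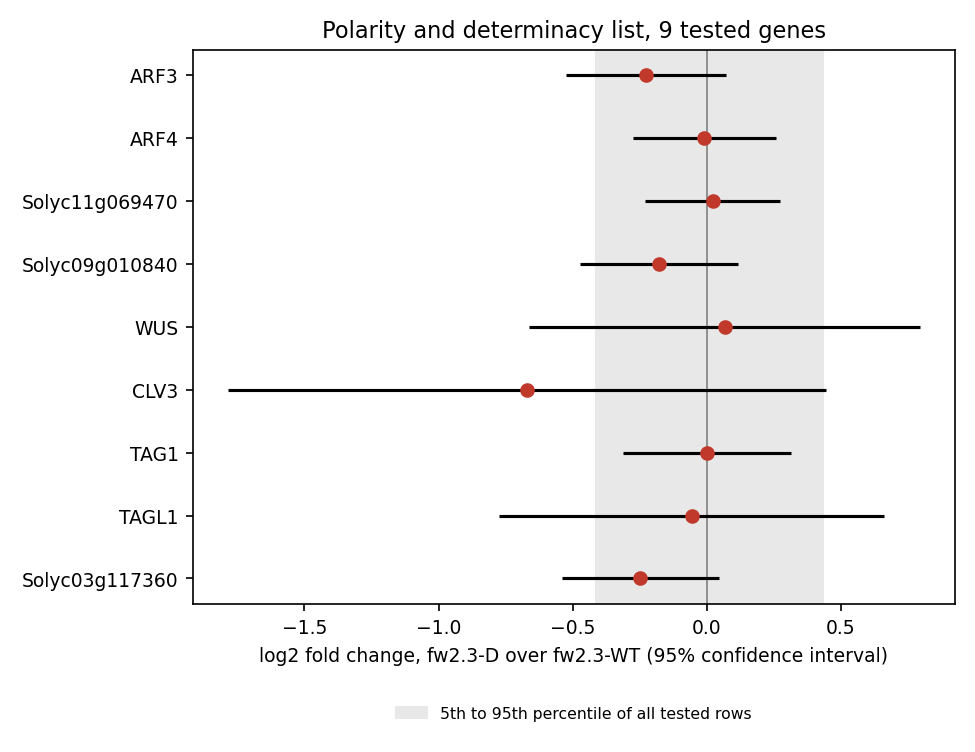
Log2 fold change of fw2.3-D over fw2.3-WT for the 9 tested genes of the polarity and determinacy list, from edgeR, with 95% confidence intervals. The grey band spans the 5th to 95th percentile of all tested rows. All intervals include 0, and CLV3, with the fewest reads, has the widest.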

How the data were processed

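The authors deposited raw read counts per gene, 1 file per pool, and a table of RPKM; both were used as deposited. Per the labels, the libraries did not keep strand. The submitters' processing notes name cutadapt, STAR and edgeR. Which program counted reads, and what was done with multiply mapped reads, is not given in the sources used here, so reads shared by similar family members are an uncertainty. In the deposited RPKM, the length implied by reads, RPKM and total was a whole number for each member (within 0.017 bases), so pools are scaled by total reads alone. No overlapping gene was listed for any member in RefSeq (assembly SLM_r2.1). Identifiers matched that table in 0 cases. Names rest on published assignments: RefSeq holds 9 YABBY, CRC and INO symbols, each on the chromosome in its identifier. Of 13 other list genes with a symbol, 12 were on the chromosome of their identifier and 1, a ripe fruit marker, was not and is not described. List genes with no symbol are given by identifier or in counts.

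Counts were tested with edgeR 4.0.16 in R 4.3.3 (glmQLFit, glmQLFTest, two-sided, TMM factors, filterByExpr with a minimum count of 10), with genotype as the single term and Benjamini-Hochberg adjustment over 20942 rows. SEs were derived from the fold change and its F statistic. CPM carry TMM factors. Ratios of members were taken as differences of log2(RPKM + 0.1). Alternatives were DESeq2 1.42.0, limma 3.58.1 on log2(RPKM + 1) and log2(RPKM + 0.1), RLE factors, no filter, at least 1 CPM in 3 pools, each pool left out, the replicate block, and an adjusted p under 0.1. All 9 members were named whatever their values; members and lists were chosen with earlier results of these data known.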

Additional observations from a re-analysis of the deposited data

How the results depend on the processing

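The count of 0 called YABBY genes held under each alternative, and for each member named below no value passed the test. Over all rows, the 5 calls were 10 with the replicate block, 48 with DESeq2, 13 when no filter was used, 0 with limma on log2(RPKM + 1), 0 on log2(RPKM + 0.1), and 0 to 18 with each pool left out (0 without fw2.3-D replicate 2 or 3 or fw2.3-WT replicate 2 or 3, and 18 without fw2.3-D replicate 1). The cause was not tested. In the order of levels, an exact sign-flip permutation test of the 8 neighbouring pairs returned the smallest p it allows, 0.03125, for each, but the order was read from the same pools, so this is no support for it. With each pool left out 0 pairs passed, since 5 pools cannot give a p below 0.0625.

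Fold changes near 0 changed sign. With limma on log2(RPKM + 1) and log2(RPKM + 0.1), YABBY1a was -0.0071 in both, YABBY5b -0.074 and -0.098, Solyc11g069470 -0.0031 and -0.0033, and TAG1 -0.030 and -0.031. With RLE factors and with DESeq2, YABBY5a was -0.0041 and -0.0040, and TAG1 -0.0056 in both. TAG1 was -4.7e-05 with at least 1 CPM in 3 pools. With the replicate block YABBY5b was -0.060 and TAG1 -0.0088, and no other direction among the tested members and the tested genes of the polarity and determinacy list changed. With each pool left out, log2 fold changes ran from -0.11 to 0.11 for YABBY1a, -0.034 to 0.18 for YABBY1b, -0.14 to 0.074 for YABBY2b, -0.16 to 0.17 for YABBY5a, -0.19 to 0.33 for YABBY5b, -0.085 to 0.24 for CRCa, 0.041 to 0.12 for YABBY2a and 0.091 to 0.36 for CRCb. They ran from -0.070 to 0.042 for ARF4, -0.017 to 0.092 for Solyc11g069470, -0.14 to 0.090 for TAG1, -0.38 to 0.30 for TAGL1 and -0.076 to 0.27 for WUS. The YABBY5a/YABBY5b log2 ratio difference ran from -0.31 to 0.41. The labels do not say whether a replicate number marks a shared batch, and whether the numbers pair the pools was not tested. Correlations of deviations between pools of one number were 0.411 for replicate 1, -0.140 for replicate 2 and 0.081 for replicate 3. Pools of different numbers were not compared in this way. Depth limits INO: 0 reads in a pool leave room for 0.105 to 0.135 CPM.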
